A study of Mus musculus with 6 samples.

Results

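Glycosyltransferases that build the glycans of the intestinal mucosa were examined by RNA sequencing in Lgr5-EGFP-high intestinal stem cells of adult mice. The genes were chosen by symbol, as those of 11 families (Galnt, C1galt1, Gcnt, B3gnt, B3galt, B4galt, B4galnt, Fut, St3gal, St6gal and St8sia), with a mean of at least 0.5 CPM (read counts scaled by library size, here the total of each library) over the 6 libraries. Of 53379 genes in the files, 82 carried such a symbol and 54 of those reached the mean, while 28 did not. The 54 comprise 52 distinct protein-coding symbols, because St6galnac2 was counted under 2 overlapping gene IDs and St8sia3os is an antisense RNA that encodes no enzyme. The mean took no account of group, but a gene could pass through the group in which it was higher. Just above the limit lay St8sia3os, B3gnt9 and B3gnt8, at means of 0.551, 0.633 and 0.738 CPM. Just below it lay B3gnt6, Galntl6 and St8sia4, at 0.366, 0.329 and 0.236 CPM.

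All mice were of the C57BL/6 strain and carried the alleles Lgr5-EGFP-IRES-CreERT2 and Rosa-tdTomato, so that EGFP and a tamoxifen-activated Cre were made under the control of the stem cell gene Lgr5. The 3 control libraries came from mice with these alleles alone, and the 3 libraries labelled Klf5-KO (labelled-KO below) from mice that also carried Klf5fl/fl, a form of the transcription factor gene Klf5 that Cre can delete. Tamoxifen was given to both groups, 1 mg a day for 5 days, and crypt cells of the proximal small intestine were then sorted for bright EGFP. The labels give no ages beyond adult, no day or litter, and do not tie libraries to single mice; the p-values therefore reflect how far the libraries vary, which may be technical.

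Mucin-type O-glycans begin when a GALNT enzyme links N-acetylgalactosamine (GalNAc) to a serine or threonine of a protein in the Golgi. C1GALT1 then adds galactose to give core 1, and GCNT enzymes add a branch of N-acetylglucosamine (GlcNAc). Chains grow by alternating GlcNAc, from B3GNT enzymes, and galactose, from B3GALT and B4GALT enzymes, and end in fucose, sialic acid or GalNAc. On intestinal mucins and on the glycocalyx of epithelial cells these glycans form a barrier and are bound by microbes and lectins. Several of the same enzymes also act on N-glycans and glycolipids.

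Total counts per library ran from 61563625 to 77666540. Klf5 itself was higher in the labelled-KO libraries, at 880, 918 and 877 CPM against 480, 512 and 547 CPM in the controls (CPM from here on are scaled to TMM library sizes). This is the opposite of a fall in Klf5 RNA. The counts are per gene and give no view of single exons, so they can neither show nor exclude the deletion. It was not checked, and every direction below is that of the labels. The stem cell markers Lgr5 and Olfm4 and 10 others were all detected and summed to 8938 to 12176 CPM in the controls and 4544 to 6032 CPM in the labelled-KO libraries, with 8 of the 12 called lower. Without Olfm4 the ranges were 3382 to 4258 and 3004 to 3408 CPM, which overlap. The highest of the rest was Slc12a2, not called, at 1387 to 1783 and 1755 to 2099 CPM. Besides Olfm4, those called lower were Ascl2, Axin2, Ephb2, Smoc2, Lgr5, Rgmb and Sox9, at log2 fold changes of -2.10 to -0.42. Markers of goblet cells (12 of 12 detected, 6 called lower and none higher) summed to 2481 to 2742 CPM and 1259 to 1611 CPM, a difference carried mostly by Fcgbp, without which the ranges of 950 to 1500 and 840 to 967 CPM overlapped. Summed markers of enterocytes (12 of 12, 7 called higher) stood at 1919 to 2317 and 3236 to 5025 CPM, those of tuft cells (11 of 12 tested, 7 called higher) at 108 to 137 and 160 to 285 CPM, and those of enteroendocrine cells (12 of 12, 9 called lower) at 164 to 326 and 94.5 to 105 CPM. Paneth cell markers summed to 1846 and 2347 CPM in control replicates 1 and 2, to 22263 CPM in control replicate 3 and to 10383 to 12902 CPM in the labelled-KO libraries. No marker on these lists was at 0 in all libraries. Leukocyte markers (9 of 10 tested) summed to 22.9 to 40.7 CPM and 27.5 to 28.9 CPM, and the few tested markers of fibroblasts (3 of 8) and endothelium (2 of 6) to at most 5.94 CPM in any library. Of these few, Pdgfrb (-2.39) and Vwf (-1.79) were called lower and Col1a2 (3.86) higher, by their log2 fold changes. Over all genes tested, 13.3% were called higher and 12.5% lower. In such sorted bulk samples, fewer cells of a type and less RNA per cell cannot be told apart.

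Of the 54 members, 13 were called higher and 9 lower in the labelled-KO libraries (edgeR's quasi-likelihood test, threshold 0.05 after Benjamini-Hochberg adjustment over all 19339 genes tested). These are 24.1% and 16.7% of the members, beside 13.3% higher and 12.5% lower over all genes tested. Counted among them are St6galnac1 (lower) and Gcnt1 (higher), which reached the limit for members only through the group in which they were higher. The median log2 fold change was 0.06 for the members and -0.01 for all genes tested. For 31 members (57.4%) the CPM of the groups did not overlap, against 43.2% of all genes tested, and the 22 called members were all among them. The members had to reach a limit on the mean CPM, whereas the genes tested include some below it, such as Galntl6 and St8sia4. Members and all genes tested are thus not matched for level, here and in the classes below. The part of this limit in the higher percentages was not tested. The call held under all 14 alternative settings for 12 members, 6 higher and 6 lower. The 6 lower were St6galnac1, B4galnt4, Galnt12, Fut4, Galnt6 and B3gnt3, and the 6 higher were B3galt5, Gcnt1, St3gal1, St3gal6, B4galnt3 and B4galt1. Without control replicate 1, control replicate 2 or labelled-KO replicate 3, 8 members were higher, and without labelled-KO replicate 1, 7 were higher. In these fits, in that order, 2148, 1689, 1783 and 1605 of all genes tested were higher, against 2581 in the main analysis.

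**Figure D1:**
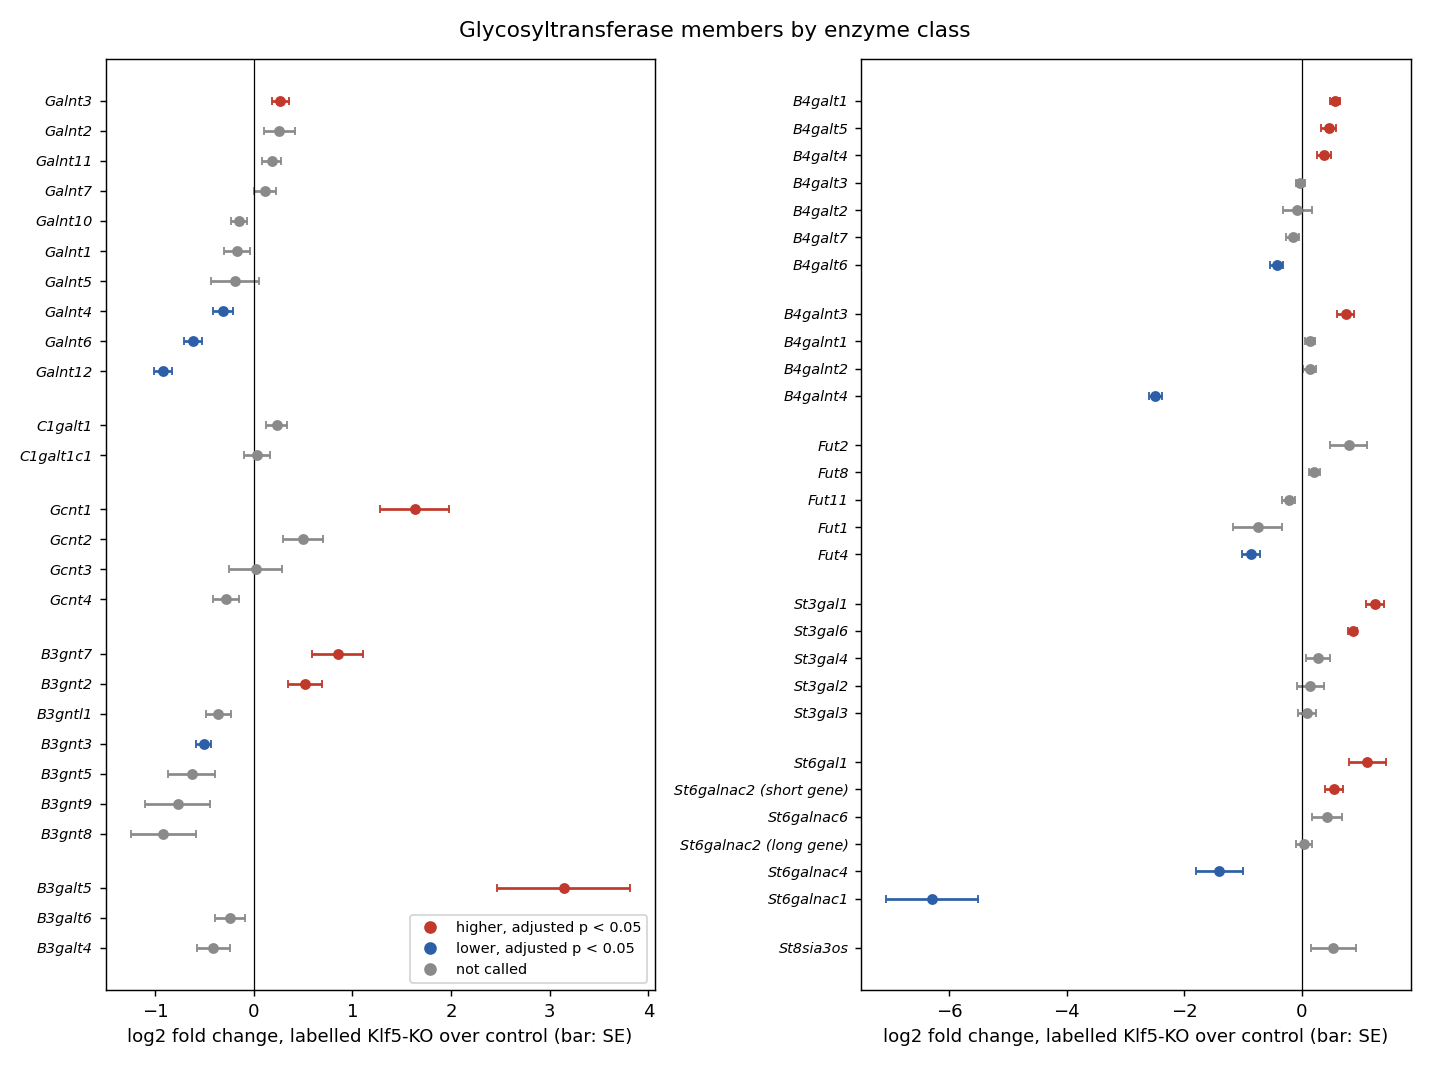
Log2 fold change of each of the 54 members, labelled-KO over control, with its standard error (horizontal bars), grouped by enzyme class and coloured by the edgeR call at an adjusted p under 0.05; the horizontal scales of the panels differ. Red points (13) and blue points (9) lie side by side in 5 of the 11 classes, with St6galnac1 at -6.29 and B3galt5 at 3.14 as the extremes.

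Levels of different genes are compared here as CPM per kilobase of exon. The highest members were B4galnt2 (175.5 CPM per kilobase over the 6 libraries) and B4galnt1 (82.5), both of which transfer GalNAc in β1,4 linkage. B3gnt3 (20.6), Galnt6 (18.6), B4galt1 (18.4), St3gal4 (17.2) and Galnt7 (16.9) followed. The lowest were Gcnt1 (0.161) and B3gnt8 (0.114). The summed level of all members was 534.9, 579.1 and 570 CPM per kilobase in control replicates 1 to 3 and 579.3, 555 and 590.9 in labelled-KO replicates 1 to 3, so the totals of the groups overlapped. B4galnt2, which makes the Sda antigen, stood at 255, 320 and 287 CPM in the controls and 313, 297 and 341 CPM in the labelled-KO libraries (log2 difference, here and below the fitted log2 fold change of labelled-KO over control, 0.14, SE 0.11, adjusted p = 0.36). B4galnt1, the synthase of the gangliosides GM2 and GD2, stood at 250, 284 and 281 CPM and at 284, 305 and 306 CPM (0.14, SE 0.09, adjusted p = 0.30). Neither of the highest members was called, and their groups overlapped.

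**Figure D2:**
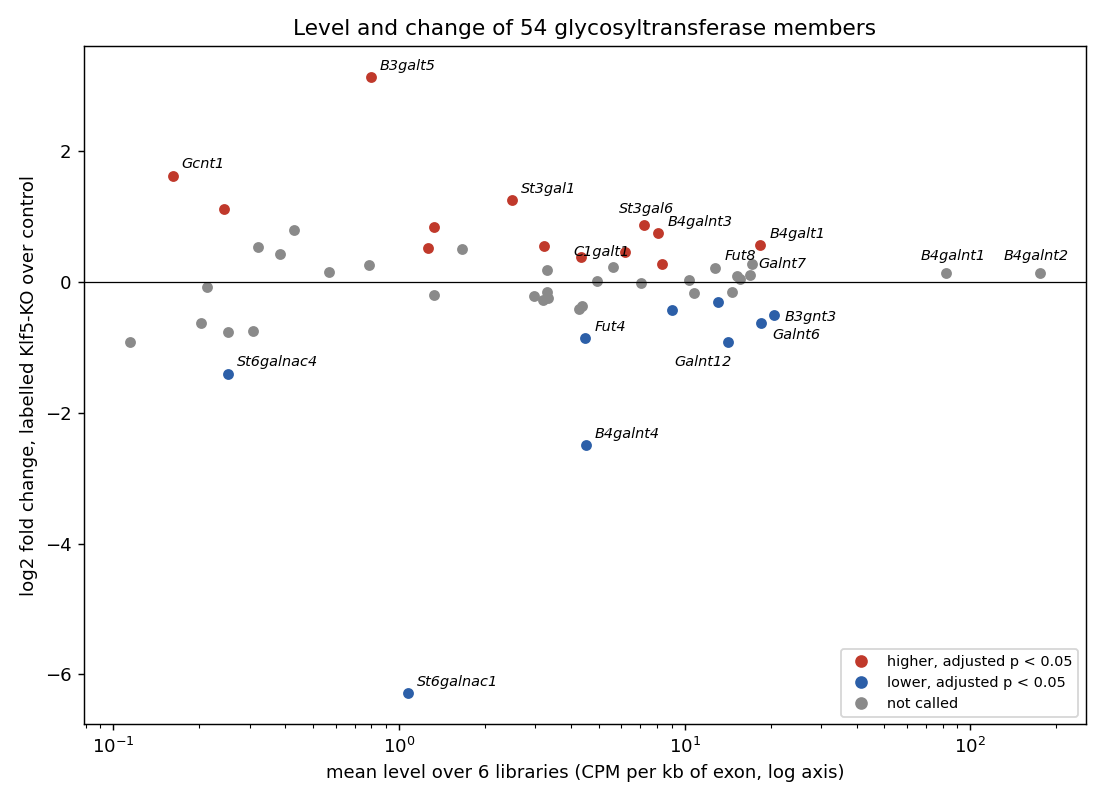
Mean level of each member over the 6 libraries (horizontal, CPM per kilobase of exon, log axis) against its log2 fold change, labelled-KO over control (vertical); colours give the edgeR call. B4galnt1 and B4galnt2 lie far to the right near 0, and the largest changes, of St6galnac1 and B3galt5, lie at levels of 1.08 and 0.796 CPM per kilobase.

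The factors of the Kruppel-like family, to which KLF5 belongs, bind CACCC boxes and related GC-rich elements. The promoter windows of the members with the smallest p in each direction that RefSeq's table held are therefore printed, from 250 bases before to 50 after the annotated start (RefSeq, GRCm38.p6, the build of mm10), each on the strand of its gene. St3gal6 (chr16:58524204-58524503, minus strand) and B4galt1 (chr4:40853935-40854234, minus) were higher in the labelled-KO libraries, and B4galnt4 (chr7:141060728-141061027, plus) and Galnt6 (chr15:100729327-100729626, minus) were lower. Capitals mark matches to CCNCNCCC on either strand.
St3gal6: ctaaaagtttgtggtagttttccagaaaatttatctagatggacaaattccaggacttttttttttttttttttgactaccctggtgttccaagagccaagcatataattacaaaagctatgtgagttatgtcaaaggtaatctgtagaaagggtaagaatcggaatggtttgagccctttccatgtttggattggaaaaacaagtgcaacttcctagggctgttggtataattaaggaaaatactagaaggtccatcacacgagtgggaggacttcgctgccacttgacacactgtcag
B4galt1: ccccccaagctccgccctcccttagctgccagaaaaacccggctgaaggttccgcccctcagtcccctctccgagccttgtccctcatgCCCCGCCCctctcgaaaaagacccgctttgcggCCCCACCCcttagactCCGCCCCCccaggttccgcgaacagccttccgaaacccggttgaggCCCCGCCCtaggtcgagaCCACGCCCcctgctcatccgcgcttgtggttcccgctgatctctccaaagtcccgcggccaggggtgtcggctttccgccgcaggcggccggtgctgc
B4galnt4: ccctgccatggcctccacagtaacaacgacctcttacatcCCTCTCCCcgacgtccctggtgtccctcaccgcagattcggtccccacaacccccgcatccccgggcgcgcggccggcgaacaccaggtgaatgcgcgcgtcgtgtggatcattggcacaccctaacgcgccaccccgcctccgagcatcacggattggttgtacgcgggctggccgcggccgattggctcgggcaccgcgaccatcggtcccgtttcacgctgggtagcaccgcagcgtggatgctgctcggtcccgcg
Galnt6: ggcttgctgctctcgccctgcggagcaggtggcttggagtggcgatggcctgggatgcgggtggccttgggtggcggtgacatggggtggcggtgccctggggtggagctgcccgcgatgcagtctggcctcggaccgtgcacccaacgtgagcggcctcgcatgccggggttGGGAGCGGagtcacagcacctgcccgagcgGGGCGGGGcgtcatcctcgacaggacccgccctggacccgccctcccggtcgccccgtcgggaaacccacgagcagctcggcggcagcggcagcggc

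CCNCNCCC matched 5 times in the window of B4galt1, 2 times in that of Galnt6, 1 time in that of B4galnt4 and not in that of St3gal6, whose second listed window held 2 matches. CACCC, searched on both strands and free to overlap the longer motif, matched 2 times in B4galt1, 5 times in Galnt6, 2 times in B4galnt4 and not in St3gal6. Of 38 member symbols found in the table (the first listed window where there were several, as for 9), 76.3% held CCNCNCCC, beside 67% of the 12020 tested genes with a window and 49.1% of all 27025 genes in the table. By call, 8 of 11 members called higher, 5 of 5 called lower and 16 of 22 not called held it. CACCC was in 68.4% of the members' windows, 63.3% of those of tested genes and 56.7% of all. A match is a string of letters and does not show binding.

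The polypeptide GalNAc-transferases, which start O-glycans, gave 10 members from 20 symbols. Of these 10, Galnt6, Galnt12 and Galnt4 were lower (30%, beside 12.5% of all genes tested) and Galnt3 was higher (10%, beside 13.3%). The other 6 were not called, and the median log2 fold change was -0.16. Galnt12 (chr4:47091909-47123070) stood at 42.2, 40.3 and 45.3 CPM in the controls and 22.1, 22.3 and 23.3 CPM in the labelled-KO libraries. The groups were far apart and each was tight (log2 difference -0.92, SE 0.09, adjusted p = 1.3e-04). Galnt6 (chr15:100691813-100729376), the highest of the family per length, stood at 86.1, 79.4 and 95.6 CPM against 56.8, 55.4 and 57.8 CPM. It was lower in all 3 (log2 difference -0.62, SE 0.09, adjusted p = 0.0013).

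Galnt4, which like Galnt12, Galnt7 and Galnt10 prefers peptides that already carry GalNAc, stood at 71.3, 83.3 and 65.9 CPM against 60.5, 57.6 and 60.4 CPM (log2 difference -0.31, adjusted p = 0.049). Galnt3 stood at 35.2, 32.9 and 30.6 CPM against 39.4, 38.9 and 40.9 CPM (0.27, adjusted p = 0.047). Both calls were at the edge of the threshold, although the groups did not overlap. The Galnt4 call was lost without any 1 library other than control replicate 3 (adjusted p = 0.081 to 0.14), and the Galnt3 call without any 1 other than control replicate 1 (0.067 to 0.14). With DESeq2 the adjusted p of Galnt4 was 0.053 and that of Galnt3 0.055, with no low-count filter 0.054 and 0.062, and Galnt4 with limma-voom had 0.054. Of the exon bases of Galnt4, 8.25% are shared on its strand with Poc1b, and reads there could go uncounted. Galnt7 and Galnt10 had log2 fold changes of 0.11 and -0.15 and Galnt11 of 0.18, none called. Galnt1 stood at 70.6, 68.9 and 49.2 CPM in the controls, control replicate 3 being the lowest, and 52.8 to 59.3 CPM in the labelled-KO libraries, and was called lower without control replicate 3 (-0.32, adjusted p = 0.019). Galnt5 was highest in control replicate 3, at 9.10 CPM against 4.42 to 5.64 CPM in the others. Galnt2 stood at 2.89 to 3.92 CPM, but it shares 90% of its exon bases with Gm20388 and its count is uncertain.

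The make-up of the family shifted with these changes. Per kilobase, the family summed to 113, 109.8 and 111.2 CPM in the controls and 94.6, 89.4 and 93.1 CPM in the labelled-KO libraries. Galnt6 held 20.2% ± 1.8 of it in the controls and 15.8% ± 0.30 in the labelled-KO libraries (SD, n = 3 each, here and below). The share of Galnt12 was 16.7% ± 0.94 and 10.7% ± 0.41, that of Galnt7 14.6% ± 1.3 and 18.9% ± 1.7, and that of Galnt3 6.75% ± 0.42 and 9.83% ± 0.28. Galnt6 was the largest in all 3 controls and Galnt7 in all 3 labelled-KO libraries. A share falls when another member rises, so shares carry no test of their own.

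**Figure D3:**
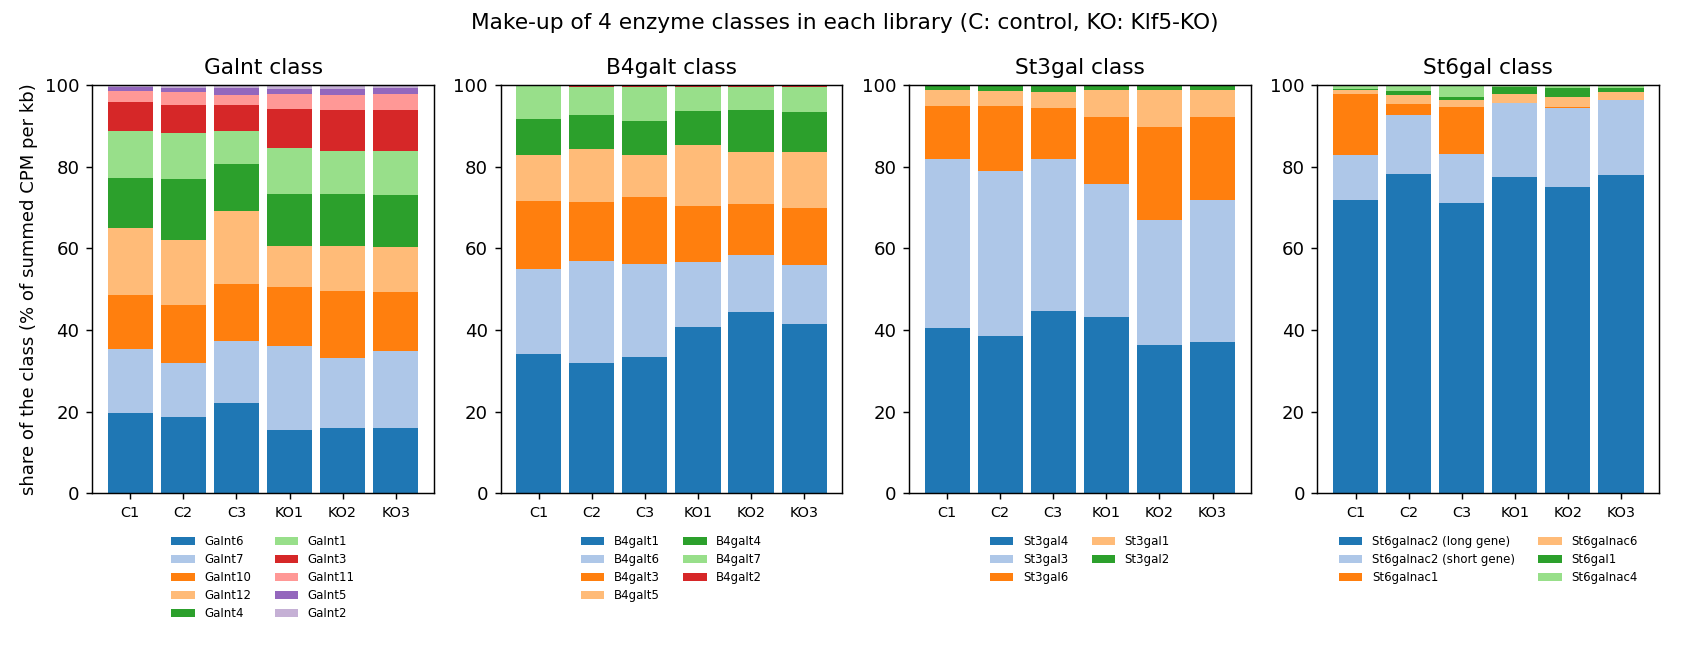
Share of each member (coloured segments, percent of the summed CPM per kilobase of its class) in control libraries C1 to C3 and labelled-KO libraries KO1 to KO3, for 4 classes. In the Galnt panel the Galnt12 segment narrows from 16.7% to 10.7% on average, and in the St6gal panel the St6galnac1 segment shrinks from 9.67% to 0.133%.

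Neither core 1 gene was called. C1galt1, the core 1 synthase, stood at 34.3, 33.4 and 27.1 CPM in the controls and 37.0, 39.0 and 35.2 CPM in the labelled-KO libraries (log2 difference 0.23, SE 0.11, adjusted p = 0.15). C1galt1c1, the chaperone Cosmc that C1GALT1 needs to fold, stood at 13.6, 14.7 and 16.3 CPM and at 14.2, 13.7 and 17.5 CPM (0.03, SE 0.13, adjusted p = 0.89). The groups of C1galt1c1 overlapped, while those of C1galt1 lay just apart. B3gnt6, which makes core 3, the alternative to core 1, was below the limit for members at 0.246 to 0.470 CPM.

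Branching enzymes gave 4 members, of which only Gcnt1 was called (25% higher, beside 13.3% of all genes tested). Gcnt1, a core 2 enzyme that adds GlcNAc to core 1, rose from 0.577, 0.441 and 0.290 CPM to 1.83, 1.34 and 0.912 CPM (log2 difference 1.63, SE 0.35, adjusted p = 0.0089). All labelled-KO libraries were above all controls, at a low level. Only its level in the labelled-KO libraries, a mean of 1.36 CPM against 0.436 CPM, brought Gcnt1 over the 0.5 CPM limit for members. Gcnt3, the mucin-type enzyme that makes core 2 and core 4, was the highest of the class per length and varied widely. It stood at 16.9, 20.9 and 25.3 CPM in the controls and 17.2, 32.3 and 14.7 CPM in the labelled-KO libraries (0.02, SE 0.27, adjusted p = 0.96). Labelled-KO replicate 2 was the highest and labelled-KO replicate 3 the lowest of the 6; the difference turned to -0.38 without labelled-KO replicate 2 (adjusted p = 0.18) and to -0.11 without control replicate 1 (0.82). Gcnt4, another core 2 enzyme, differed by a log2 value of -0.28 (adjusted p = 0.14). Gcnt2, which branches poly-N-acetyllactosamine chains into the I antigen, stood at 9.07, 8.001 and 12.1 CPM against 17.6, 11.4 and 12.3 CPM (0.50, adjusted p = 0.095). It passed without control replicate 3 (adjusted p = 0.035), with DESeq2 (0.039) and with no low-count filter (0.014).

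The B3gnt class, named for enzymes that extend chains with β1,3-linked GlcNAc, gave 7 members, with a median log2 fold change of -0.51. Of these, 2 were higher (28.6%, beside 13.3% of all genes tested) and 1 was lower (14.3%, beside 12.5%). B3gnt3 (chr8:71690756-71701789), which extends core 1, held 76.0% ± 1.6 of the summed level per kilobase of the class in the controls. It fell from 73.2, 76.1 and 72.4 CPM to 49.0, 54.3 and 52.2 CPM (log2 difference -0.51, SE 0.08, adjusted p = 0.0020). The gap between the groups was wider than the spread within either. B3gnt7 rose from 3.89, 2.56 and 5.31 CPM to 6.87, 5.86 and 8.37 CPM (0.85, SE 0.26, adjusted p = 0.037). B3gnt2, a main synthase of poly-N-acetyllactosamine, rose from 3.93, 2.94 and 3.52 CPM to 5.08, 5.17 and 4.67 CPM (0.52, SE 0.17, adjusted p = 0.047). B3gnt2 shares 74.7% of its exon bases with other genes on its strand, so its count is uncertain. B3gnt7 missed the threshold when control replicate 1 (adjusted p = 0.079) or 2 (0.094) or labelled-KO replicate 1 (0.090) or 3 (0.13) was left out. The B3gnt2 call was lost without any 1 library other than control replicate 1 (0.056 to 0.13).

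The other 4 of the class had negative log2 fold changes and were not called. B3gntl1, in the class by its symbol alone, stood at 16.9, 17.4 and 17.8 CPM against 15.9, 11.7 and 12.9 CPM (-0.36, adjusted p = 0.061). It passed without labelled-KO replicate 1 (0.038). B3gnt5, which starts lacto-series glycolipids, differed by a log2 value of -0.63 (adjusted p = 0.079), and passed without control replicate 3 (0.033). B3gnt8 (-0.92, adjusted p = 0.070) passed without control replicate 1 (0.033) and with no low-count filter (0.040), and B3gnt9 had -0.77 (adjusted p = 0.12). These 3 stood below 1.5 CPM in every library.

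Of the galactosyltransferases, 4 were higher (40%, beside 13.3% of all genes tested) and 1 lower (10%, beside 12.5%) among 10 members. B3galt5 (chr16:96235801-96319859), which makes type 1 chains, showed the largest rise of all members. It stood at 1.76, 0.571 and 0.646 CPM in the controls and 3.86, 18.4 and 4.18 CPM in the labelled-KO libraries (log2 difference 3.14, SE 0.67, adjusted p = 0.0088). All 3 were above the controls, and labelled-KO replicate 2 stood far above the other two. Without that library the log2 fold change was 2.03 (adjusted p = 0.016), and without control replicate 1, the highest control, it was 3.85 (0.0085). Enterocyte markers were also higher in the labelled-KO libraries, at a summed 5025, 3236 and 4160 CPM against 1919 to 2317 CPM, lowest of the 3 in replicate 2; their part in this result was not tested. B3galt4, the GM1 ganglioside synthase, stood at 5.96, 7.77 and 9.12 CPM against 5.57, 5.61 and 6.01 CPM (-0.41, adjusted p = 0.11) and passed without control replicate 1 (0.033). B3galt6, which acts in the linker of proteoglycan chains, differed by a log2 value of -0.24 (adjusted p = 0.26) and passed without control replicate 3 (0.039).

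B4galt1 (chr4:40804602-40854005), the main β1,4-galactosyltransferase of N-acetyllactosamine, rose from 64.5, 63.7 and 60.1 CPM to 90.4, 98.6 and 90.4 CPM (log2 difference 0.57, SE 0.08, adjusted p = 0.0012). The groups were well apart. Its share of the B4galt class went from 33.1% ± 1.2 to 42.2% ± 1.9 per kilobase. B4galt5 and B4galt6, both lactosylceramide synthases, moved in opposite directions. B4galt5 rose from 22.0, 26.5 and 18.9 CPM to 33.4, 28.9 and 30.7 CPM (0.46, SE 0.13, adjusted p = 0.028), while B4galt6 fell from 54.2, 68.6 and 56.6 CPM to 48.3, 42.4 and 43.5 CPM (-0.42, SE 0.11, adjusted p = 0.021). B4galt4 rose from 11.7, 11.9 and 10.7 CPM to 13.2, 16.3 and 15.2 CPM (0.38, SE 0.12, adjusted p = 0.039). The differences of these 3 were smaller than that of B4galt1, and each call was lost when certain single libraries were left out. In those fits the log2 fold changes were 0.35 to 0.48 for B4galt5, -0.40 to -0.31 for B4galt6 and 0.33 to 0.41 for B4galt4. A smaller group also makes a call harder to reach. The B4galt5 call was lost without control replicates 1 or 3 or labelled-KO replicates 1 or 3 (adjusted p = 0.054 to 0.11), that of B4galt6 without control replicate 2 or labelled-KO replicates 2 or 3 (0.062 to 0.079), and that of B4galt4 without any 1 library other than labelled-KO replicate 1 (0.072 to 0.12). B4galt3, B4galt2 and B4galt7, the last a linker enzyme of proteoglycans, had log2 fold changes of -0.02, -0.07 and -0.15 and were not called. B4galt2 shares 28.2% of its exon bases with Ccdc24 on the same strand.

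B4galnt3 and B4galnt4, which both make GalNAcβ1-4GlcNAc (LacdiNAc) ends, were called in opposite directions, each under every alternative. B4galnt4 (chr7:141061104-141072400) fell from 31.8, 30.6 and 26.1 CPM to 5.14, 5.42 and 5.21 CPM, a 5.62-fold difference (log2 difference -2.49, SE 0.11, adjusted p = 3.6e-06). The 3 labelled-KO libraries were nearly alike and all far below the controls. B4galnt3 (chr6:120203073-120294559) rose from 17.4, 24.1 and 26.9 CPM to 40.5, 38.3 and 36.2 CPM (0.75, SE 0.15, adjusted p = 0.0060). Per kilobase, B4galnt4 stood at 7.66 and B4galnt3 at 6.03 CPM in the controls, and at 1.36 and 10.2 CPM in the labelled-KO libraries. The order of these means was thus turned over. In control replicate 3, however, B4galnt3 (7.12) already stood above B4galnt4 (6.78). B4galnt1 and B4galnt2, above, made up most of the class in both groups.

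**Figure D4:**
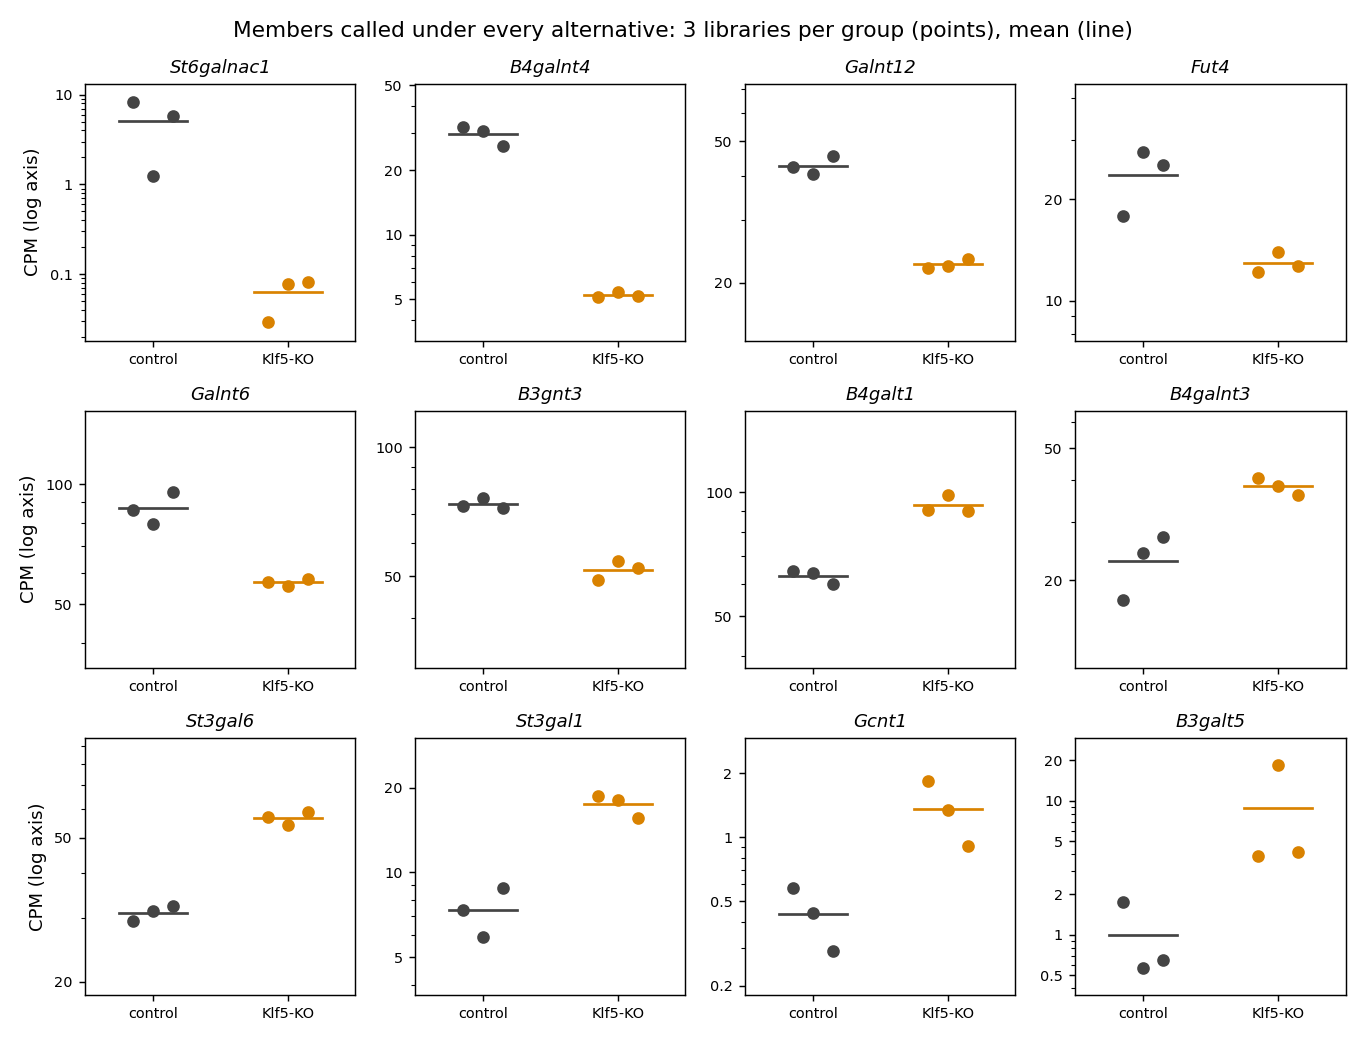
CPM (vertical, log axis) in the 3 control and 3 labelled-KO libraries (points) with the group mean (line) for the 12 members whose call held under every alternative, ordered from the largest fall to the largest rise. In every panel the groups are apart, most widely for St6galnac1; B3galt5 shows labelled-KO replicate 2, at 18.4 CPM, above the other 2.

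Of 5 fucosyltransferase members, 1 was lower (20%, beside 12.5% of all genes tested) and none was higher (beside 13.3%). With 5 members these counts do not set the class apart from all genes. Fut4 (chr9:14748320-14752393), which adds α1,3-linked fucose in Lewis x structures, fell from 17.9, 27.6 and 25.3 CPM to 12.2, 14.0 and 12.7 CPM (log2 difference -0.86, SE 0.16, adjusted p = 0.0040). The lowest control lay above the highest labelled-KO library. Fut8, which adds the core fucose of N-glycans and is the highest of the class, stood at 96.6, 94.3 and 90.4 CPM against 108, 119 and 99.4 CPM (0.22, SE 0.09, adjusted p = 0.11). Fut2, which makes the α1,2-fucosylated ends of intestinal mucosa, stood at 2.12, 1.70 and 1.27 CPM against 2.82, 4.28 and 1.78 CPM (0.80, SE 0.32, adjusted p = 0.10). Its groups overlapped in labelled-KO replicate 3, and it passed without that library (1.07, adjusted p = 0.039), with DESeq2 (0.036) and with no low-count filter (0.012). Fut1, the other α1,2 enzyme, differed by a log2 value of -0.75 (SE 0.42, adjusted p = 0.22), and Fut11 by -0.22 (adjusted p = 0.17).

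The sialyltransferase families gave 12 members, 4 higher (33.3%, beside 13.3% of all genes tested) and 2 lower (16.7%, beside 12.5%). The 12 include the antisense RNA St8sia3os and both gene IDs of St6galnac2, the shorter of which is among the 4 higher. The largest difference of all members was here. St6galnac1 (chr11:116765025-116775507), which adds sialic acid to the first GalNAc of an O-glycan and so makes sialyl-Tn, had 603, 96 and 357 counts in the controls and 2, 5 and 6 counts in the labelled-KO libraries. In CPM these are 8.29, 1.25 and 5.76 against 0.0292, 0.0779 and 0.0829 (log2 difference -6.29, SE 0.78, adjusted p = 5.8e-04). It was thus detected well in every control, at uneven levels, and close to the floor of 3 counts in every labelled-KO library. Only its level in the controls, a mean of 5.10 CPM against 0.0633 CPM, brought it over the 0.5 CPM limit for members. On the summed counts of 1056 and 13, the control level was 78.6-fold that of the labelled-KO libraries, with an exact 95% interval of 45.8 to 148.2 that covers counting error only. Of the 12 goblet cell markers, with a median of -0.80, 6 were also called lower (50%, beside 12.5% of all genes tested). These were Zg16 (-1.49), Fcgbp (-1.48), Tff3 (-1.46), Klk1 (-1.05), Creb3l1 (-1.01) and Creb3l4 (-0.84). The 6 not called were Spdef (-0.77), Clca1 (-0.73), Muc2 (-0.24), Spink4 (-0.08), Agr2 (0.00) and Ccl6 (0.19). The 12 markers summed to 1259 to 1611 CPM against 2481 to 2742 CPM in the controls, or 840 to 967 against 950 to 1500 CPM without Fcgbp. Their part in this result was not tested.

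St6galnac4, which adds sialic acid to the GalNAc of sialylated core 1, fell from 1.35, 1.70 and 4.07 CPM to 0.789, 0.888 and 0.994 CPM (log2 difference -1.40, SE 0.40, adjusted p = 0.029). Control replicate 3, in which Paneth and enteroendocrine markers were also highest among the controls, was far above the other controls, and the part of those cells in this result was not tested. Without that library the log2 fold change was -0.77 (adjusted p = 0.042). The call was lost without any 1 labelled-KO library (0.069 to 0.10) and with limma-voom (0.058). St6gal1, which caps N-glycans with α2,6-linked sialic acid, rose from 0.481, 1.04 and 0.742 CPM to 1.81, 1.87 and 1.24 CPM (1.12, SE 0.31, adjusted p = 0.029). Its call was lost without control replicate 1 (0.070), control replicate 3 (0.051), labelled-KO replicate 1 (0.093) or labelled-KO replicate 2 (0.081). St6galnac2, the main member of its class, stood at 97.0, 85.2 and 87.0 CPM against 97.6, 72.9 and 105 CPM under its longer gene ID (0.04, SE 0.13, adjusted p = 0.87). The shorter overlapping ID of 1683 bases, at 4.37, 4.53 and 4.33 CPM against 6.66, 5.51 and 7.24 CPM, was called higher (0.55, SE 0.15, adjusted p = 0.027). That call was lost without control replicates 1 or 2 or labelled-KO replicates 1 or 3 (0.062 to 0.11). Reads over the 383 shared bases could go uncounted, so the pair does not show a change of St6galnac2 as a whole. St6galnac6 differed by a log2 value of 0.43 (adjusted p = 0.26).

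The α2,3-sialyltransferases gave 5 members, 2 higher (40%, beside 13.3% of all genes tested) and none lower (beside 12.5%). St3gal6 (chr16:58468125-58524243), which acts on N-acetyllactosamine ends, rose from 29.4, 31.3 and 32.4 CPM to 57.2, 54.4 and 59.1 CPM, a 1.83-fold difference (log2 difference 0.87, SE 0.08, adjusted p = 1.4e-04). St3gal1 (chr15:67102875-67113992), which sialylates core 1, rose from 7.37, 5.89 and 8.78 CPM to 18.7, 18.01 and 15.6 CPM, a 2.38-fold difference (1.25, SE 0.16, adjusted p = 6.1e-04). For both genes the highest control was well below the lowest labelled-KO library. St3gal4, the highest of the class, and St3gal3 overlapped between the groups. St3gal4 stood at 43.9, 36.4 and 56.1 CPM against 71.8, 42.1 and 51.9 CPM (0.28, SE 0.20, adjusted p = 0.34), and St3gal3 differed by a log2 value of 0.09 (adjusted p = 0.68). St3gal2, an enzyme of gangliosides and core 1, had 0.15 (adjusted p = 0.67). The St8sia family, α2,8-sialyltransferases of gangliosides and of polysialic acid, had no protein-coding member: all 6 protein-coding St8sia genes were below the limit, and St8sia3os stood at 0.350 to 0.826 CPM (0.54, adjusted p = 0.33).

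Other genes of the glycan pathways were taken from 5 lists drawn up by function. Of 28 genes that make or carry sugar nucleotides, 4 were higher (14.3%) and 7 lower (25%), beside 13.3% and 12.5% of all genes tested, with a median log2 fold change of -0.15. Nans, the sialic acid synthase, fell from 78.8, 70.8 and 70.5 CPM to 50.8, 55.5 and 55.3 CPM (-0.45, SE 0.09, adjusted p = 0.0054), and Uap1l1 fell by 0.71 on the log2 scale (adjusted p = 0.0046). The lowest control of Nans lay well above the highest labelled-KO library. Of 9 tested sulfotransferases, 1 was higher (11.1%) and 4 lower (44.4%), with a median of -0.68. Of these 4, Chst2 (-2.02, adjusted p rounding to 0.05) was at the edge of the threshold, and its groups overlapped. It stood at 0.577, 5.46 and 1.86 CPM in the controls against 0.789, 0.685 and 0.483 CPM. Chst4, which sulfates GlcNAc, fell from 5.15, 5.03 and 5.33 CPM to 2.19, 2.40 and 1.69 CPM (-1.31, adjusted p = 0.0011), and Chst15, a chondroitin sulfotransferase, fell by 1.48 (adjusted p = 7.3e-04). Chst11, another chondroitin sulfotransferase, rose from 15.6, 17.8 and 13.02 CPM to 33.8, 26.4 and 33.2 CPM (1.01, adjusted p = 0.0011).

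Of 6 tested genes on the list of sialidases and fucosidases, 2 were higher (33.3%, beside 13.3% of all genes tested) and none lower, with a median of 0.16. Sialidases and fucosidases remove terminal sugars, but Ctsa, also on the list (-0.02, not called), is neither. Neu3, the plasma membrane sialidase, rose from 2.40, 2.41 and 3.18 CPM to 10.02, 8.60 and 10.7 CPM (1.88, SE 0.17, adjusted p = 1e-04). Neu1, the lysosomal sialidase, rose by 0.84 on the log2 scale (adjusted p = 7.6e-04). Of 13 tested genes of N-glycan branching and fringe, 2 were higher (15.4%, close to the 13.3% of all genes) and 4 lower (30.8%, beside 12.5%), with a median of -0.19. Mgat3, which adds the bisecting GlcNAc of N-glycans, fell from 37.9, 44.6 and 47.0 CPM to 20.4, 13.6 and 19.8 CPM (-1.27, adjusted p = 6.0e-04). Mgat4c rose from 0.481, 0.480 and 0.5003 CPM to 4.08, 5.73 and 4.03 CPM (3.24, SE 0.23, adjusted p = 2.8e-05). Of 8 tested mucins, the proteins that carry most O-glycans, 3 were higher (37.5%) and 2 lower (25%), with a median of -0.06. The membrane mucins Muc13 and Muc3 rose by 0.64 and 1.95 on the log2 scale (adjusted p = 0.0047 and 0.0021), whereas Muc2, the secreted mucin of goblet cells, stood at 420, 335 and 532 CPM against 403, 373 and 317 CPM (-0.24, adjusted p = 0.32). Muc20, at 0.0552 to 0.323 CPM, was lower (-1.78, adjusted p = 0.014).

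**Figure D5:**
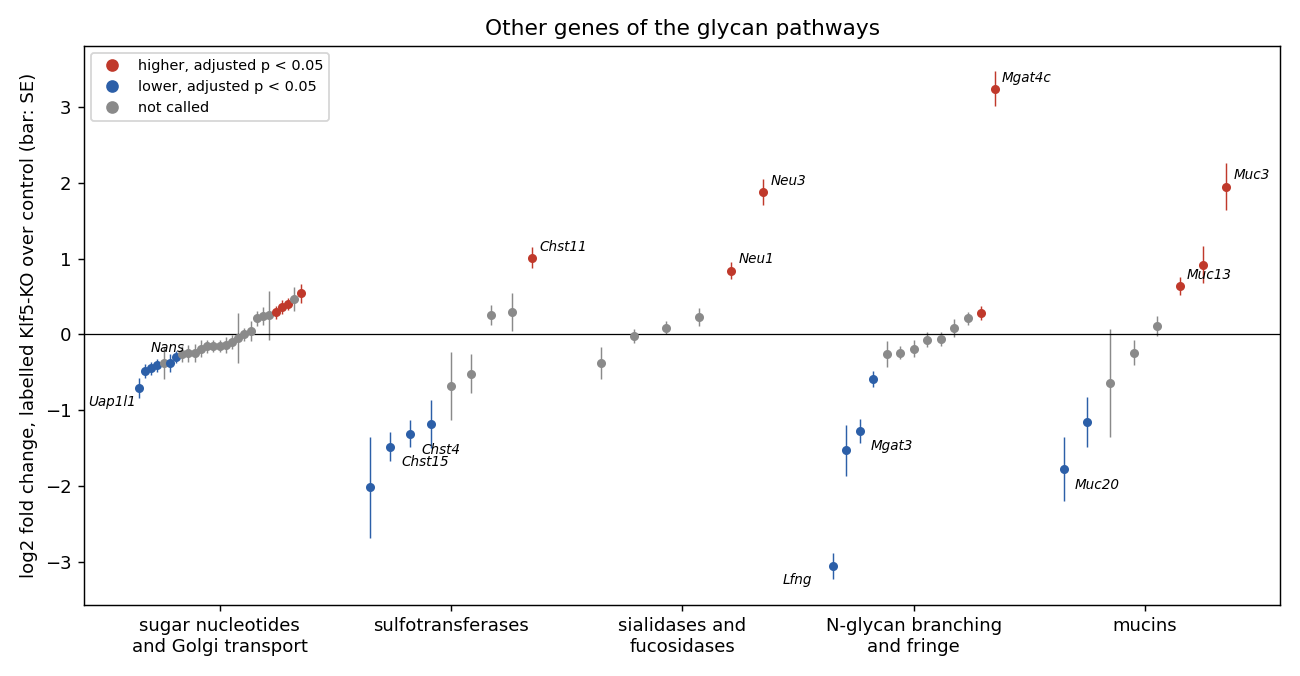
Log2 fold change with its standard error (vertical bars) of tested genes on 5 lists of other glycan genes, labelled-KO over control, coloured by the edgeR call; those named by the rule are labelled and 1 gene is not shown. The sugar nucleotide genes shown lie within 1 log2 unit of 0, and Lfng (-3.06) and Mgat4c (3.24) are the extremes.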

How the data were processed

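RNA from 6 libraries, 3 control and 3 labelled Klf5-KO, was sequenced. The deposited values are raw read counts per gene. Per the submitters' processing notes, the authors used STAR 2.5.2a with mm10 and also named DESeq2 1.18.1; per the file headers, featureCounts 1.4.3-p1 was run by them with strand setting 2 and the GENCODE vM16 annotation, with no option for read pairs, multiple hits or overlapping genes. GENCODE vM21 gave symbols for 53274 of 53379 IDs, and gene positions are as in the files. The test was edgeR's (version 4.0.16, R 4.3.3; filterByExpr, TMM factors, quasi-likelihood F test with group as the only term, Benjamini-Hochberg adjustment over 19339 genes, threshold 0.05); the SE is the log2 fold change over the square root of F. The method was tested on simulated data. All counts of a library, 61563625 to 77666540, set its precision; 3 counts, the floor, are 0.0389 to 0.0484 CPM and, like intervals, cover counting error only. PCR copies were not told apart. Alternatives were a replicate block, RLE scaling, removal of 2 rRNA-like and the mitochondrial genes, other low-count filters, DESeq2 1.42.0, limma-voom 3.58.1, a threshold of 0.01 and leaving out each library. The members and lists were chosen with earlier results of these data known. Named genes were Klf5; per class, the highest per length (by TPM) and up to 4 called with the smallest p; the 10 largest rises and falls; a fixed list; the 3 on either side of the limit; and up to 3 called per pathway list. Members outside the rule are named to account for each, after their values were seen, and so are Ctsa and Chst2 of the pathway lists. No protein sequences were used. 1 gene of the pathway lists is counted but not reported here by name.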

Additional observations from a re-analysis of the deposited data

How the results depend on the processing

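Among the members, 13 were higher and 9 lower in the main analysis. Leaving out 1 library in turn gave 7 to 9 higher and 6 to 12 lower members, and 1605 to 2740 higher and 1467 to 2664 lower genes over all tested (2581 and 2413 in the main analysis). At an adjusted p under 0.01, 6 members were higher and 6 lower, and 1226 and 1118 of all genes. With the replicate block, 9 members were higher and 8 lower, and 2286 and 2088 of all genes. It ended the calls of Galnt3 (adjusted p = 0.078), Galnt4 (0.072), B3gnt2 (0.075), B4galt4 (0.062) and the short St6galnac2 ID (0.053). The libraries share only a number: deviations of same-numbered libraries correlated at -0.041 to 0.0055, and 1 of 6 correlated best with its own number. The other settings gave 13 or 14 higher and 7 to 9 lower members. Of the 22 called members, 12 kept the call under all 14 alternatives, none changed sign, and 8 uncalled members passed under some. The median of the members ran from 0.02 to 0.15. Signs turned for these uncalled genes: Gcnt3 with limma-voom (-0.05), the replicate block (-0.04) and leaving out libraries (-0.38 to 0.24); St8sia4 with rRNA-like and mitochondrial genes removed (-0.001) and leaving out libraries (-0.54 to 0.87); B4galt3 with no filter (0.003) and leaving out libraries (-0.05 to 0.04); and, leaving out libraries, C1galt1c1 (-0.09 to 0.12), St6galnac2 under the long ID (-0.07 to 0.20), B3gnt6 (-0.06 to 0.36), Galntl6 (-0.79 to 0.15), Galnt5 (-0.39 to 0.17), B4galt2 (-0.24 to 0.08) and St3gal3 (-0.03 to 0.27). The cause was not tested. Genes below 1 CPM, such as Gcnt1, rest on few counts.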
